A study of Homo sapiens with 6 samples.

Results

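SW480 and SNU-C1 are both established human colorectal cancer cell lines. Their genome-wide contact maps were compared here for relative coverage, compartments, insulation and long-range contacts. The comparison used 4 of the 6 deposited maps and 2 of the 4 cell lines of the study, which asked how somatic rearrangements affect chromatin folding. SW480 had a map of each of replicates 1 and 2 and a further map without a number, and SNU-C1 had 1 map. The lines were untreated cultures, and chromatin was cut with MboI for in situ Hi-C. The SW480 map without a number held the sum of the replicates at 99.9% of its 27596738 bin pairs, so it is their pool. The replicates give the level of noise within SW480 and no further sample. Per the methods Hi-C was run in duplicate, but no source used here says if the SNU-C1 map pools its duplicates. Because SNU-C1 had 1 map, the differences between the lines have no test and are given as values, beside the same quantity between the SW480 replicates. Expression was not measured, so the identity of the lines could not be set against marker levels.

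Hi-C counts pairs of sequences that were joined because they lay close together in the nucleus. Active, gene-rich chromatin (compartment A) contacts other active chromatin, and silent chromatin (compartment B) contacts other silent chromatin, which gives a plaid pattern whose leading eigenvector separates the groups. On a finer scale, chromatin folds into topologically associating domains, and contacts drop across the boundaries between them. A deletion, gain or fusion of DNA changes both the number of read pairs and the apparent contact between the joined ends. In colorectal tumours, gains of chromosome 13, 8q and 20q, loss of 18q and inactivation of *APC* in the WNT pathway are common.

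Pairs of 40-kb bins within chromosomes 1 to 22 held 128422134 read pairs in the SW480 pool, 63525377 in replicate 1, 64870925 in replicate 2 and 111654971 in SNU-C1. Bins were usable where both lines had at least 0.25 of the autosomal median coverage, which held for 63948 of 72036 bins. The SW480 map without a number listed 352916 bin pairs between chromosomes and the SNU-C1 map 19500640. Pairs within a bin numbered 69836 in the SW480 pool, 69696 and 69691 in its replicates and 0 in SNU-C1. The maps of the lines were thus not written alike, and line and map processing cannot be told apart. The SW480 replicates do not measure an effect of this. The methods do not say whether a map was corrected within chromosomes or over the whole genome.

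Relative coverage is what a bin holds in read pairs over the autosomal median of its map, taken as the median over 1-Mb blocks. A coverage ratio of at least 1.5 in the pool and in both replicates was found for 443 of 2587 blocks. Of all blocks, 6.84% were higher in SW480 (177 blocks) and 10.3% were higher in SNU-C1 (266 blocks). Between the SW480 replicates 0 blocks reached this ratio, and the largest fold between them was 1.13, whereas the largest fold between the lines was 4.86. These folds cover usable bins only, so blocks where 1 line fell mostly under the coverage minimum are not among the 2587. The median fold was 1.01 between replicates and 1.20 between lines.

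Chromosomes 13 and 8 held most of the blocks with higher coverage in SNU-C1. Chromosome 13 had a median relative coverage of 1.03 in the SW480 pool, 1.03 in replicate 1, 1.02 in replicate 2 and 2.16 in SNU-C1, and 91 of its 96 blocks passed the ratio. The longest run reached from 19 to 64 Mb with medians over its blocks of 1.06, 1.05 and 1.06 in the SW480 maps and 2.35 in SNU-C1, and it held *CDX2*, the homeobox factor that specifies intestinal epithelium, *CDK8*, a Mediator kinase, *OLFM4*, a marker of crypt stem cells, and *RB1*, a cell-cycle tumour suppressor. At *CDX2* the relative coverage was 1.17, 1.16 and 1.16 in the SW480 maps and 2.59 in SNU-C1, a ratio of 2.22. A second run on the same chromosome went from 74 to 115 Mb. On chromosome 8 the run from 62 to 106 Mb had medians of 0.92, 0.93 and 0.91 in SW480 and 1.76 in SNU-C1, and it held the epithelial regulators *ESRP1*, a splicing factor, and *GRHL2*, a transcription factor, and *CDH17*, an intestinal cadherin. Runs from 114 to 126 and from 132 to 143 Mb of chromosome 8 and from 184 to 197 Mb of chromosome 1 made up the remainder of the 6 longest.

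Blocks with higher coverage in SW480 formed shorter runs. The 6 longest lay on chromosome 12 from 0 to 13 Mb (1.55, 1.54 and 1.52 in the SW480 maps against 0.83 in SNU-C1), on chromosome 19 from 44 to 57 Mb and from 33 to 43 Mb, on chromosome 17 from 1 to 9 Mb, on chromosome 11 from 65 to 72 Mb and on chromosome 18 from 7 to 14 Mb. The run on chromosome 11 held *CCND1*, which encodes cyclin D1, with coverage of 1.18 in the SW480 pool and 0.62 in SNU-C1. At *MYC*, a growth-promoting transcription factor on chromosome 8 at position 128747680 of hg19, the block had 8.87, 8.87 and 8.85 in the SW480 maps and 2.19 in SNU-C1. The block with *APC*, which encodes the scaffold that targets beta-catenin for degradation, had the largest ratio of the 2587 blocks, with 1.48, 1.48 and 1.49 in SW480 and 0.31 in SNU-C1 (4.86). Bins of this block under the coverage minimum in SNU-C1, such as 4 from 112.68 to 112.84 Mb, were left out of these medians. Neighbouring blocks without enough usable bins have no ratio. The 3 SW480 maps lay close together at both genes, and SNU-C1 was lower at both.

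**Figure D1:**
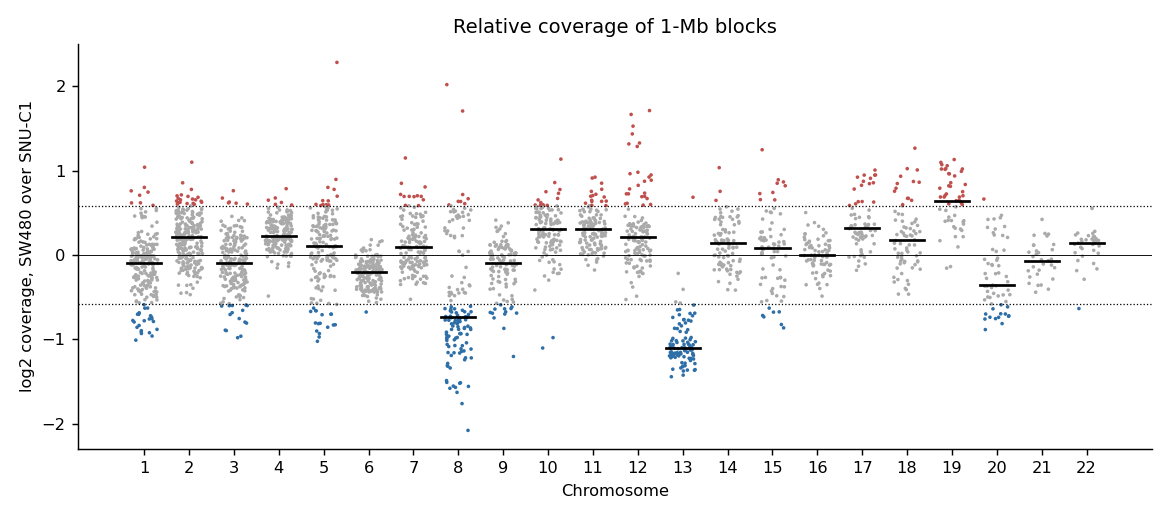
Each point is a 1-Mb block, placed by chromosome (horizontal) and by the log2 ratio of relative coverage in the SW480 pool over SNU-C1 (vertical), with black lines at the median of each chromosome and dotted lines at a ratio of 1.5 in either direction. Points beyond the dotted lines are coloured, red for SW480 and blue for SNU-C1, and chromosomes 8 and 13 lie mainly below 0 while chromosome 19 lies above.

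The coverage ratio moved with base composition. With the 1-Mb blocks in 5 equal groups by GC content, in the lowest group (33.5% to 36.9% GC), the median relative coverage was 0.90 in the SW480 pool and 1.03 in SNU-C1, and in the highest group (44.5% to 58.2% GC) it was 0.92 and 0.77. The median ratio went from 0.912 in the lowest group through 0.965, 1.03 and 1.11 to 1.20 in the highest. The share of blocks higher in SW480 was 1.74% in the lowest and 17.6% in the highest group, and the share higher in SNU-C1 was 16.6% and 2.70%. Across the 2587 blocks, which share libraries, Pearson's r between GC content and log2 ratio was 0.35, and it was -0.26 for the log2 ratio of the SW480 replicates. By gene, 14.3% of 18067 protein-coding genes lay in blocks higher in SW480 and 5.32% in blocks higher in SNU-C1. The part of base composition in the coverage differences was not tested. With the fitted bin factors in place of summed read pairs, 131 blocks passed, 19 of them (14.5%) higher in SW480, against 39.95% with read pairs.

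Short segments of high coverage stood out at the scale of single bins. In SNU-C1, 11 adjacent bins from 34.92 to 35.36 Mb of chromosome 11 had a median relative coverage of 34.2 and a maximum of 39.4, against medians of 1.68, 1.66 and 1.70 in the SW480 maps. These bins overlap 4 protein-coding genes, *APIP*, *PDHX*, *SLC1A2* and *CD44*, which encodes the hyaluronan receptor of colorectal stem-like cells. The bin with the start of *CD44* had 35.0 in SNU-C1 and 1.90, 1.89 and 1.91 in the SW480 maps. On the same chromosome, 8 bins from 23.68 to 24 Mb without a protein-coding gene had a median of 18.3 in SNU-C1 and 1.32 in the SW480 pool. A further 6 bins from 34.8 to 35.04 Mb of chromosome 8 had 9.83 in SNU-C1 and 0.68 in the SW480 pool. In SW480 the stretches of adjacent bins at 5 or more times the median lay between 126.52 and 129.64 Mb of chromosome 8, and the longest of them, from 128.6 to 129.44 Mb with *MYC*, had a median of 7.56 in the pool, 7.56 in replicate 1, 7.55 in replicate 2 and 1.95 in SNU-C1. These stretches were picked with their values in view. The 1-Mb block with *CD44* had 1.63 in the SW480 pool and 1.28 in SNU-C1, so the median over the block did not show the segment.

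Some bins were listed at or near 0 in 1 line. SNU-C1 fell under the minimum in 1382 bins that SW480 covered, and SW480 in 226 that SNU-C1 covered. The longest stretch in SNU-C1 was 65 bins from 113.04 to 115.64 Mb of chromosome 5, distal to *APC*, listed at a median of 0 there and at 1.17 in the SW480 pool. Further stretches on this chromosome reached from 109.36 to 110.04 and from 110.88 to 111.48 Mb. Stretches listed at 0 in SNU-C1 also lay in gene-dense sequence, with 51 bins from 0.28 to 2.32 Mb of chromosome 7 (27 protein-coding genes, 0.89 in the SW480 pool), 23 bins from 0.76 to 1.68 Mb of chromosome 1 (42 genes, 0.41) and 18 bins from 0.72 to 1.44 Mb of chromosome 16 (30 genes, 0.32). In SW480, 16 bins from 91.4 to 92.04 Mb of chromosome 4 within the fragile-site gene *CCSER1* were listed at 0 in all 3 maps and at 0.85 in SNU-C1, and 5 bins from 60.4 to 60.6 Mb within *FHIT*, another fragile-site gene, were listed at 0 against 0.75. The longest stretch in SW480 was 87 bins of the major histocompatibility region on chromosome 6, listed at 0 in all 3 of its maps and at 0.87 in SNU-C1. Whether bins were removed from the maps of 1 line alone is stated by no source used here, so a removed bin and a bin without read pairs cannot be told apart at a 0 in either line, near *APC* in SNU-C1 and at *CCSER1* and *FHIT* in SW480 too. Why these bins were low was not tested.

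Compartments were read from the eigenvector of the observed over expected contacts (O/E) of 200-kb blocks, set to an SD of 1 in each chromosome and map, with positive values for the gene-rich side (A). A block was counted as different where SNU-C1 had the opposite sign to all 3 SW480 maps and the values were at least 1 SD apart. This held for 931 of 12850 blocks. Of all blocks, 5.1% were A in SW480 and B in SNU-C1 (655 blocks), and 2.15% were B in SW480 and A in SNU-C1 (276 blocks). Of the differing blocks 70.4% were thus A in SW480, and 61.3% were where the eigenvector was centred on its mean. Between the SW480 replicates, 0 blocks of opposite sign were 1 SD apart. Opposite signs of any size occurred in 272 blocks (2.12%) between replicates and in 1905 (14.8%) between lines. Pearson's r across blocks, which are not independent, was 0.994 between replicates and 0.840 between lines. Compartment A covered 52.4% of blocks in the SW480 pool, 52.1% and 52.3% in its replicates and 47.1% in SNU-C1.

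**Figure D2:**
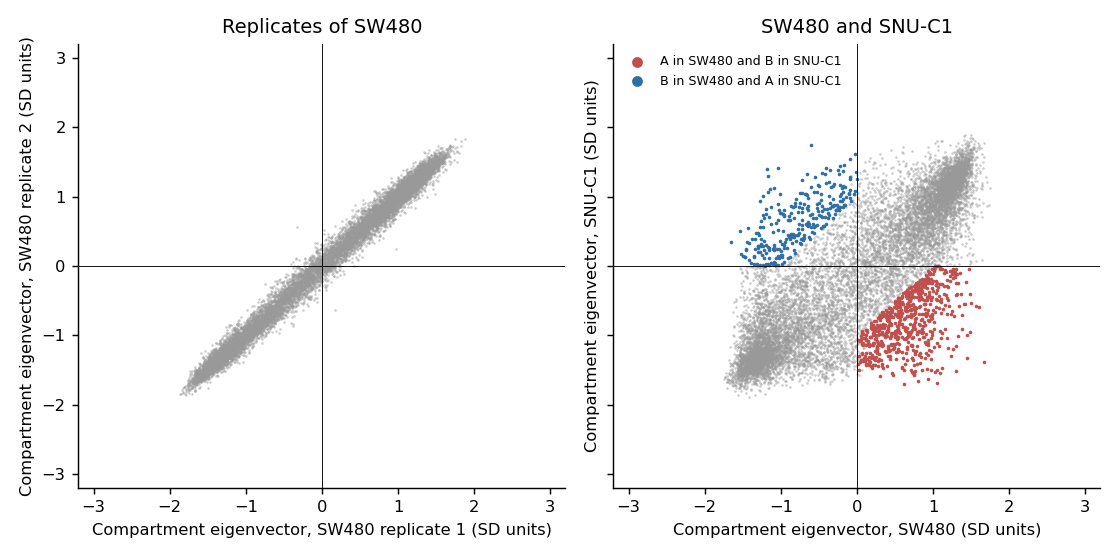
Each point is a 200-kb block, with its compartment eigenvector in SD units in SW480 replicates 1 and 2 (left) and in the SW480 pool and SNU-C1 (right). The replicates lie along the diagonal (r = 0.994), and the coloured points are the 655 blocks that were A in SW480 and B in SNU-C1 and the 276 with the opposite signs.

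The blocks that differed were poor in genes. On average, blocks that were A in both lines held 2.42 protein-coding gene starts, blocks that were B in both held 0.516, blocks that were A in SW480 and B in SNU-C1 held 0.794 and the opposite class held 0.757. Coverage moved with the compartment. The median log2 coverage ratio of SW480 over SNU-C1 was 0.27 in blocks that were A in SW480 and B in SNU-C1 and -0.30 in the opposite class, against 0.18 in blocks that were A in both lines and -0.07 in blocks that were B in both. The part of coverage in the compartment difference was not tested.

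On chromosome 7 from 40.2 to 43.6 Mb, all 17 blocks differed in each of the 7 alternatives tried for single blocks. The median eigenvector over these blocks was 0.95 in the SW480 pool, 0.93 in replicate 1, 0.88 in replicate 2 and -1.16 in SNU-C1. It held *INHBA*, which encodes the activin A subunit, and *GLI3*, a transcription factor of Hedgehog signalling. The block with the start of *INHBA* (position 41745432) had 0.73, 0.75 and 0.60 in the SW480 maps and -1.16 in SNU-C1, and that of *GLI3* had 1.26, 1.16 and 1.31 against -1.19. Opposite sides of 0 for all 3 SW480 maps and SNU-C1 were required at both genes by the rule for a differing block. On chromosome 1 from 56.4 to 59 Mb, medians were 0.26, 0.23 and 0.23 in SW480 and -1.08 in SNU-C1, and the run held *PLPP3*, a lipid phosphatase, *PRKAA2*, a catalytic subunit of AMP-activated kinase, and the complement genes *C8A* and *C8B*. At *PRKAA2* the values were 0.91, 0.86 and 0.88 against -0.99. Of the 13 blocks of this run, 5 differed where the eigenvector was computed within chromosome arms and 8 where it was centred on its mean. On chromosome 6 from 22 to 24.4 Mb, with *PRL*, which encodes prolactin, *NRSN1* and *DCDC2*, medians were 0.76, 0.70 and 0.75 against -0.92, but 0 of the 12 blocks differed within arms.

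The remaining 3 of the 6 largest runs that were A in SW480 lay on chromosome 5 and depended on the eigenvector. On this chromosome the vector that tracked gene number best was the second in SNU-C1 and the first in the SW480 maps, r between the lines was 0.61, and 109 blocks were A in SW480 and B in SNU-C1 and 18 had the opposite signs. Without chromosome 5, 804 blocks differed. The run from 127.4 to 130.4 Mb, with *FBN2*, which encodes fibrillin, and *SLC12A2*, a chloride cotransporter, had 15 differing blocks, of which 6 remained with an expected value for each chromosome and 4 within arms. The run from 168.2 to 170.8 Mb, with *SLIT3*, an axon guidance ligand, and *DOCK2* and *LCP2*, which act in blood cells, kept 10 and 8 of its 13 blocks under the same settings. The run from 106.6 to 109 Mb, with *EFNA5*, an ephrin ligand, and *FER*, a tyrosine kinase, kept 4 and 0 of 12. It overlaps an end of a contact that was stronger in SNU-C1 (107.6 to 109.4 Mb with 115.6 to 117.8 Mb).

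Blocks that were A in SNU-C1 and B in SW480 formed shorter runs. On chromosome 12 from 70.2 to 71.8 Mb, with *CNOT2*, a subunit of the deadenylase complex, and the receptor phosphatases *PTPRB* and *PTPRR*, medians were -0.86, -0.79 and -0.85 in the SW480 maps and 0.71 in SNU-C1. From 88.8 to 90.6 Mb of the same chromosome, with *KITLG*, the ligand of the KIT receptor, and *DUSP6*, a phosphatase that restrains ERK, medians were -0.82, -0.76 and -0.78 against 0.39. At *DUSP6* the values were -0.31, -0.31 and -0.27 in SW480 and 0.96 in SNU-C1, but within arms 2 of the 9 blocks of this run differed. On chromosome 1 from 168.4 to 170 Mb, medians were -0.54, -0.52 and -0.54 against 0.85. This run held *SELE* and *SELP*, which encode selectins, *F5*, which encodes coagulation factor V, and *ATP1B1*, a sodium pump subunit, and its 8 blocks differed in all 7 alternatives. Coverage at *ATP1B1* was 1.09 in the SW480 pool and 1.86 in SNU-C1. On chromosome 8 from 62.8 to 63.8 Mb, with *NKAIN3*, medians were -1.14, -1.06 and -1.01 against 1.07, and coverage at *NKAIN3* was 0.97 and 2.17. On chromosome 3 from 108 to 109 Mb, with *CIP2A*, an inhibitor of protein phosphatase 2A, and *RETNLB*, which encodes a goblet cell protein, medians were -1.09, -1.04 and -1.11 against 0.75. The run on chromosome 2 from 147.6 to 148.6 Mb held no protein-coding gene start.

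Single genes of the WNT pathway and of the epithelial-mesenchymal transition differed in compartment. Of all 17952 protein-coding genes with a value, 2.9% were A in SW480 and B in SNU-C1 and 1.16% had the opposite signs. Of the 24 WNT pathway genes, 4 were A in SW480 and B in SNU-C1, 0 had the opposite signs, 17 were A in both lines and 2 were B in both. These 4 encode secreted inhibitors (*DKK1* and *SFRP2*), a ubiquitin ligase that removes WNT receptors (*RNF43*) and a WNT ligand (*WNT5A*). *DKK1*, at position 54074041 of chromosome 10, had 0.50 in the SW480 pool, 0.49 in replicate 1, 0.52 in replicate 2 and -0.99 in SNU-C1. *SFRP2* had 0.18, 0.30 and 0.07 against -1.02, *RNF43* had 0.75, 0.71 and 0.69 against -0.45, and *WNT5A* had 0.35, 0.25 and 0.37 against -0.68. At each of these genes, positive values in the SW480 maps and a negative value in SNU-C1 were required by the rule. Of the 7 alternatives, *DKK1* kept its call in 7, *SFRP2* in 6, *RNF43* in 5 and *WNT5A* in 3.

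Of 26 genes of the epithelial-mesenchymal transition, 1 differed in each direction, 17 were A in both lines and 6 were B in both. A count of 1 in a list this short is not set apart from the shares over all genes (2.9% and 1.16%). *ZEB1*, which encodes a repressor of epithelial genes, had 0.89, 0.92 and 0.78 in the SW480 maps and -0.28 in SNU-C1. *TCF4*, which encodes an E-protein that binds E-boxes and is not the WNT effector of the same alias, had -1.53, -1.56 and -1.52 in SW480 and 0.51 in SNU-C1. Of the 7 alternatives, *ZEB1* kept its call in 6 and *TCF4* in 7. The epithelial cadherin gene *CDH1* was A in both lines (1.15 and 0.996 in the SW480 pool and SNU-C1), and the neural cadherin gene *CDH2* was B in both (-1.39 and -1.25). The mesenchymal regulators *ZEB2* (-0.61 and -0.89), *SNAI2* (-0.74 and -0.98) and *TWIST1* (-0.64 and -1.44) were also B in both lines. These examples do not stand for the list, in which 17 of 26 genes were A in both lines and 6 were B in both.

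**Figure D3:**
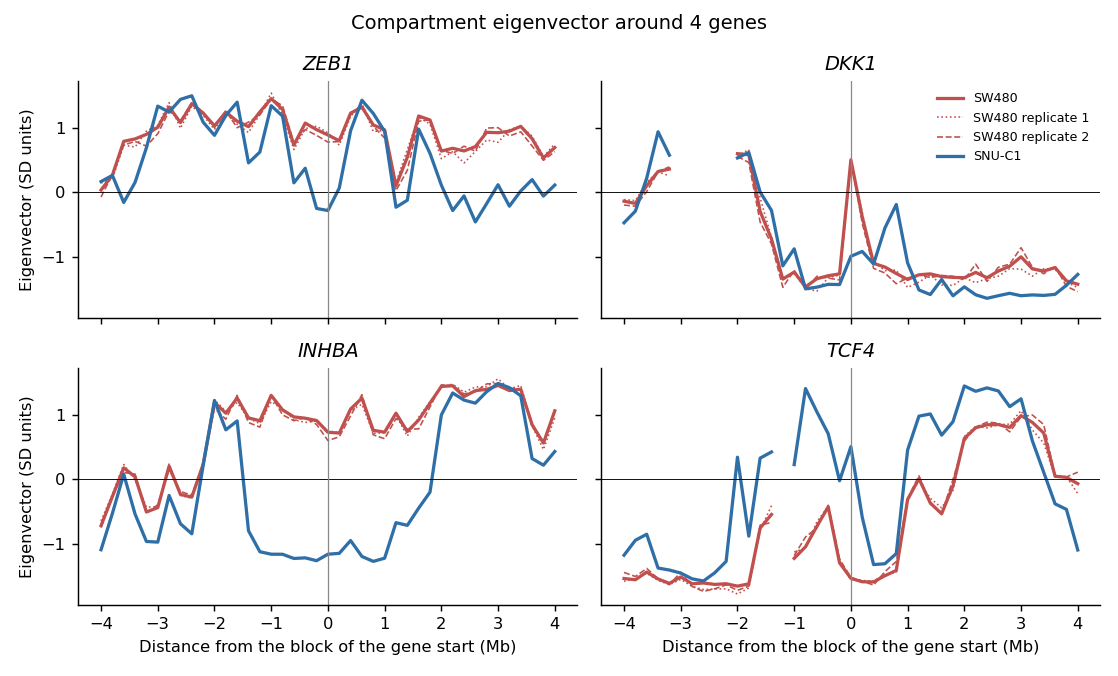
The compartment eigenvector in SD units (vertical) is drawn against the distance in Mb from the 200-kb block of the start of *ZEB1*, *DKK1*, *INHBA* and *TCF4*, in the SW480 pool and replicates (red) and in SNU-C1 (blue), with gaps at blocks that were not usable. At *INHBA* the lines lie on opposite sides of 0 over a wide stretch, at *DKK1* over a narrow one, and the SW480 replicates overlap throughout.

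Genes that mark the intestinal lineage showed 0 of 26 with a difference in compartment. Of the 26, 19 were A in both lines and 4 were B in both. Over all 17952 protein-coding genes with a value, 13185 were A in both lines and 2841 were B in both. Of all genes, 2.9% were A in SW480 alone and 1.16% in SNU-C1 alone. In lists this short, a count of 0 or 1 is not set apart from these shares. The intestinal genes that were A in both included *CDX2* (1.19 in the SW480 pool and 1.40 in SNU-C1) and *HNF4A*, a hepatocyte and enterocyte factor (1.34 and 1.15). Others were *VIL1*, which encodes villin of the brush border (1.40 and 1.44), and *KRT20*, a keratin of differentiated colon cells (1.19 and 1.15). The stem cell receptor gene *LGR5* (-0.58 and 0.16) had opposite signs, with a difference under 1. Among 35 colorectal cancer genes 1 differed, *GREM1*, which encodes a BMP antagonist and had values of -0.001, -0.04 and -0.04 in the SW480 maps and 1.25 in SNU-C1. With the SW480 values this close to 0, *GREM1* kept its call in 5 of the 7 alternatives. Among 14 genes of stromal cells 1 differed, *COL1A2*, which encodes a collagen chain, with 0.71, 0.74 and 0.62 in SW480 and -1.14 in SNU-C1, in a run from 94 to 95.2 Mb of chromosome 7 that also held the imprinted gene *PEG10*. Of 20 common fragile site genes 17 were B in both lines and 1 differed, *CCSER1* (-0.51, -0.50 and -0.46 against 1.16). Both *COL1A2* and *CCSER1* kept their calls in all 7 alternatives. The start of *CCSER1*, in the bin at 91.04 Mb, lies near the 16 bins of this gene listed at 0 in the SW480 maps (91.4 to 92.04 Mb). The part of these bins in its call was not tested. All 39 *HOX* genes, which lie in clusters and share bins, and all 15 housekeeping genes with a value were A in both lines. Of 14 immune cell genes 0 differed. Of 352 olfactory receptor genes, which also lie in clusters, 276 were B in both and 14 were B in SW480 and A in SNU-C1. Genes in the same 200-kb block share its value, so these are not counts of separate calls.

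Compartment strength, the log2 of contacts within over contacts between the 20% of blocks at either extreme of the mean eigenvector of the SW480 pool and SNU-C1, was 4.45 in the SW480 pool, 4.46 and 4.44 in its replicates and 4.54 in SNU-C1. By chromosome it was higher in both SW480 replicates on 9 chromosomes and lower in both on 13. The difference of -0.093 depended on the setting, from -0.023 with an expected value for each chromosome to -0.21 with 10% of blocks at either extreme. Where replicate 1 or replicate 2 was left out and the extreme blocks were chosen again from the mean eigenvector of the remaining replicate and SNU-C1, it was -0.039 and -0.035.

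The insulation score is the log2 of contacts across a bin, within 1 Mb on either side, over the mean of the chromosome, and low values mark boundaries. It differed by at least 0.5 between SNU-C1 and all 3 SW480 maps in 840 of 61436 bins. Of all bins, 0.822% were higher in SW480 (505 bins) and 0.545% were higher in SNU-C1 (335 bins), and 0 bins differed by as much between replicates. Pearson's r across bins was 0.997 between replicates and 0.892 between lines. Chromosome 15 held 141 of the bins higher in SW480 and 40 of those higher in SNU-C1, and 659 bins differed without it. When the same correction within chromosomes was applied to both lines, 407 bins differed.

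Most domain boundaries were shared. Of 2561 boundaries in the SW480 pool, 2146 (83.8%) had a SNU-C1 boundary within 80 kb, and these were 80.1% of the 2678 SNU-C1 boundaries. Of 2569 boundaries in SW480 replicate 1, 96.1% had a boundary in replicate 2. Boundaries without a partner within the 80 kb numbered 413 in SW480 and 527 in SNU-C1 where both lines had values, and 21 and 26 of them, respectively, had scores that differed by at least 0.5. The largest of these in SW480 lay at 93.84 Mb of chromosome 5 near *KIAA0825* and *SLF1*, with scores of -1.09, -1.08 and -1.10 in the SW480 maps and 0.08 in SNU-C1. Next was a bin at 37.96 Mb of chromosome 18 without a gene within 100 kb, with -0.95, -0.98 and -0.92 against 0.04. In SNU-C1 the largest lay at 34.76 Mb of chromosome 8, at the edge of the segment of high coverage there (0.13, 0.13 and 0.12 against -1.16), and at 195.64 Mb of chromosome 3 near *TNK2*, a tyrosine kinase gene (-0.11, -0.10 and -0.12 against -1.22).

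By gene, 1.69% of 16548 protein-coding genes lay in bins with a higher insulation score in SW480 and 0.399% in bins with a higher score in SNU-C1. Outside the olfactory receptor and zinc finger families, 5 genes of the lists were among the former and 0 among the latter. They were 1 of 21 WNT pathway genes, 1 of 26 genes of the epithelial-mesenchymal transition and 3 of 13 housekeeping genes. The other lists had 0. The bin with the start of *CD44* had 0.33, 0.30 and 0.35 in the SW480 maps and -0.56 in SNU-C1. *DKK4*, which encodes a secreted WNT inhibitor on chromosome 8, had -0.34, -0.33 and -0.34 against -0.93, with coverage of 0.97 and 2.77. *B2M*, which encodes the shared light chain of class I histocompatibility molecules on chromosome 15, had -0.25, -0.29 and -0.21 against -1.33, with coverage of 0.83 and 1.28. The housekeeping genes *GUSB* (-0.13 in the pool against -0.72) and *RPLP0* (-0.94 against -1.47) were the others, with coverage of 1.44 and 0.82 and of 1.05 and 0.83. On chromosome 15, 141 of 1711 bins had a higher score in SW480. The bin of *B2M*, at 45 Mb, lay in an end (44.8 to 45.2 Mb) of a group of contacts stronger in SNU-C1. The part of coverage and of such contacts in these values was not tested.

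Long-range contacts were compared as O/E of 4515870 pairs of 200-kb blocks at least 2 Mb apart. A contact was stronger in a line where O/E was at least 4, was at least 4 times that of the other line after adding 0.5, and rested on at least 10 read pairs. Unlike the calls above, this rule was applied to the SW480 pool without asking for both replicates. It held for 0.0705% of block pairs in SW480 (3182) and for 0.0792% in SNU-C1 (3576). Of these, 1334 and 2654 also met the O/E limits with each replicate in place of the pool. By the same rule 380 block pairs were stronger in SW480 replicate 1 than in replicate 2 and 433 in the opposite direction. Each replicate is shallower than the pool. The SW480 pairs were mostly isolated and faint. Of them 2216 touched no other, 337 (10.6%) lay in groups of at least 5, and the median was 12 read pairs, with 1 in SNU-C1. Of the SNU-C1 pairs 1603 (44.8%) lay in groups of at least 5, and the median was 28 read pairs, with 3 in SW480. Chromosome 15 held 1760 of the SNU-C1 pairs and 84 of its 114 groups of at least 5. Without it the order of the lines turned round for the SW480 pool, with 3169 pairs stronger in SW480 and 1816 in SNU-C1. The order did not turn round with either replicate alone. With replicate 1, 1434 pairs (8 on chromosome 15) were stronger in SW480 and 3918 (1769 on chromosome 15) in SNU-C1. With replicate 2 these were 1546 (13) and 3886 (1749). Chromosome 3 held the most SW480 pairs (1085), followed by chromosome 7 (589) and chromosome 2 (419), and the same chromosomes held the most differences between replicates. With replicate 1 or 2 alone, chromosome 7 held the most (357 and 383), and chromosome 3 held 225 and 260.

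**Figure D4:**
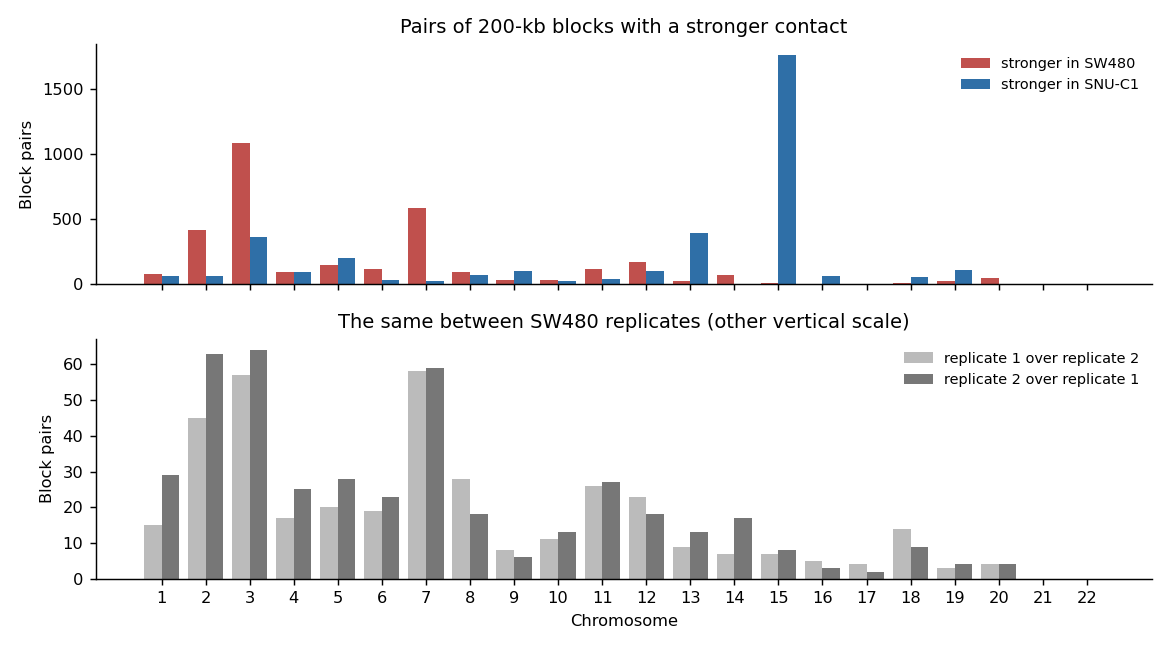
Bars give the number of 200-kb block pairs by chromosome whose contact was stronger in SW480 (red) or in SNU-C1 (blue), and below, on a smaller vertical scale, the number that differed between SW480 replicates. The SNU-C1 pairs on chromosome 15 (1760) stand far above both replicate bars there (7 and 8), whereas chromosomes 2, 3 and 7 have the highest bars of SW480 and of its replicates.

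The group with the most read pairs in SNU-C1 linked the segments of high coverage on chromosome 11. Blocks at 23.8 and 35.2 Mb had an O/E of 53.5 with 44226 read pairs (95% Poisson interval 43815 to 44640, counting error only), against 0.46 with 12 read pairs in the SW480 pool (4 in replicate 1 and 8 in replicate 2). The group of 6 block pairs covers *CD44*. The ratio of O/E, with 0.5 added to both lines, was 56.0, and it was 122 with the same correction in both lines. Relative coverage of these blocks was 17.8 and 36.2 in SNU-C1 and 1.21 and 1.92 in SW480. On chromosome 5 of SNU-C1 a group of 52 block pairs joined 107.6 to 109.4 Mb with 115.6 to 117.8 Mb, on either side of *APC*. Its strongest pair, at 109.2 and 115.6 Mb, had an O/E of 68.4 with 569 read pairs (523 to 618), against 0.81, 0.60 and 1.01 in the SW480 maps. The ratio was 52.5, and it was 119 with a coverage minimum of 0.5 and 34.2 with the same correction. The ends of this contact border the bins listed at 0 between them. On chromosome 13, 128 block pairs joined 63.4 to 65.8 Mb with 103.4 to 106.6 Mb, and the strongest pair had an O/E of 57.9 with 246 read pairs in SNU-C1 and 0.23 with 1 read pair in the SW480 pool. Its distal block held *ERCC5*, a nuclease gene of nucleotide excision repair. The groups on chromosome 15 with the most read pairs paired 61.8 with 81 Mb, at *CEMIP*, a hyaluronan-degrading protein gene (O/E of 43.7 against 0.75), and 53 with 96.2 Mb, at *ONECUT1*, a liver and pancreas factor gene (O/E of 192 against 0.95). The latter ratio was 133 on 4 read pairs in SW480, and it was 385 without replicate 1, 80.97 without replicate 2 and 69.6 with an expected value for each chromosome. The group on chromosome 1 paired 200.6 with 209.2 Mb (28.5 against 0.48). Groups are given by their number of read pairs, and groups with fewer read pairs had larger ratios. One of them, chosen after its values were known, joined 57.4 to 60.4 Mb with 180.8 to 184.2 Mb of chromosome 3 in 130 block pairs, and its strongest pair had an O/E of 311 with 302 read pairs (269 to 338) in SNU-C1 and 0 read pairs in the SW480 pool.

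In SW480 the group with the most read pairs lay around *MYC*. Blocks at 126.4 Mb, with *TRIB1*, which encodes a pseudokinase, and at 129.4 Mb had an O/E of 12.8, 13.1 and 12.6 in the SW480 maps and 1.35 in SNU-C1, with 9083 read pairs in the pool (8897 to 9272) and 125 in SNU-C1. On chromosome 3, 119 block pairs joined 27.4 to 31.8 Mb with 135.8 to 138.6 Mb across the centromere. The strongest pair had an O/E of 115, 118 and 111 in the SW480 maps and 1.01 in SNU-C1, on 271 read pairs (240 to 305), 138 of them in replicate 1 and 133 in replicate 2. One end held *NEK10*, a kinase gene, and *SLC4A7*, a bicarbonate transporter gene, and the other *MSL2*, a chromatin regulator gene, and *PCCB*, a mitochondrial carboxylase gene. Of the groups of SW480 with the most read pairs, 3 lay on chromosome 20. The pair at 42.8 and 48.4 Mb, in a group of 2 block pairs, had an O/E of 10.3, 9.52 and 11.0 in SW480 and 0.75 in SNU-C1 on 581 and 54 read pairs. One block held *HNF4A* and the other *SNAI1*, a regulator of the epithelial-mesenchymal transition. Both blocks held other genes too, such as *JPH2* and *SLC9A8*, and blocks of 200 kb do not resolve contacts of single genes. The pairs at 17.4 and 19.4 Mb (7.57 in the pool against 0.85) and at 33 and 45.2 Mb (8.86 against 0.56) were the others. Each of the contacts given here for SW480 was above an O/E of 7 in both replicates.

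Contacts reached farther in SW480. Pairs of bins over 20 Mb apart held 10.3% of the read pairs in the pool, 10.3% and 10.4% in replicates 1 and 2, and 7.83% in SNU-C1, a ratio of 1.32. Pairs under 200 kb apart held 31.6%, 31.7% and 31.6% against 35.9%. The share over 20 Mb was higher in both SW480 replicates on 20 of 22 chromosomes and lower on chromosomes 15 and 18 (6.228% against 6.237% on the latter), and the share under 200 kb was lower on 22 of 22. On chromosome 15 the share over 20 Mb was 6.33% in the SW480 pool and 9.98% in SNU-C1 (ratio 0.634), and without it the ratio over the other chromosomes was 1.34. In narrow bands of distance the ratio of shares rose from 0.852 between 0.04 and 0.08 Mb to 1.21 between 2.2 and 3.04 Mb, came down to 1.05 between 8.32 and 11.6 Mb and reached 1.75 between 85.96 and 120 Mb. Between replicates it was 1.003 and 0.991 in the first and last of these bands.

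**Figure D5:**
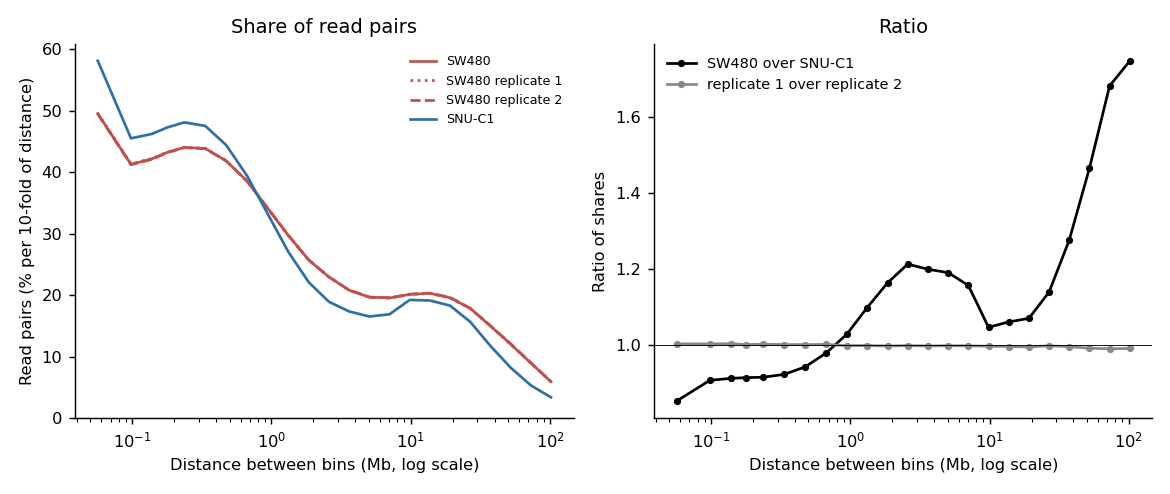
Left, the share of read pairs per 10-fold of distance against the distance between bins in Mb on a log scale, for the SW480 pool and replicates (red) and SNU-C1 (blue). Right, the ratio of shares by band, which crosses 1 near 0.8 Mb and reaches 1.75 for SW480 over SNU-C1, while the ratio of the SW480 replicates stays near 1.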

How the data were processed

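Per the methods, reads of in situ Hi-C libraries cut with MboI were mapped to hg19 (BWA-MEM), freed of PCR duplicates (Picard) and binned into matrices that were balanced by iterative correction. No source used here states tool versions or filters. The deposited values are a signal, namely contact frequencies between 40-kb bins after that correction. A factor per bin was fitted so that each value times the factors of its bins was a whole number of read pairs, which held within 0.02 for 99.98% of values in the SW480 pool and 100% in the other maps. Depth and coverage come from these read pairs, and depth limits single block pairs most. Eigenvectors, insulation and O/E use the deposited values. The expected value was the mean at the same distance over chromosomes 1 to 22, smoothed over 10% of the distance beyond 5 Mb. Of the first 3 eigenvectors, the one that ranked most like gene number was taken, from O/E values limited to 4. Blocks of 200 kb needed 3 of 5 usable bins and 1-Mb blocks 13 of 25. Boundaries had a delta window of 200 kb and a strength of at least 0.1. Genes were placed by their start in GENCODE on GRCh37, whose chromosome lengths equalled those of the bins on 22 of 22 chromosomes.

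Named genes are list genes in differing blocks, genes in the 6 longest coverage runs, in the 6 compartment runs with the largest summed difference and in the 6 contact groups with the most read pairs in each direction, genes near the boundaries with the largest difference, and examples from each list, picked with their values in view. The comparison, the lists and the rules were chosen with earlier results of these data known. Pairs within a bin, the sex chromosomes and pairs between chromosomes were left out, and some loci are not reported here. The fitted read pairs, coverage ratios, compartment calls, stronger contacts and boundaries were checked on simulated maps with known changes. The other calculations were not checked in this way. Alternatives were other bin minimums, block sizes, windows, corrections, expected values, thresholds and each replicate left out. The software was Numba 0.67.0, SciPy 1.17.1, NumPy 2.4.6, PyArrow 21.0.0, pandas 2.3.3 and Matplotlib 3.10.9 under Python 3.11.15.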

Additional observations from a re-analysis of the deposited data

How the results depend on the processing

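Each quantity was recomputed under alternatives, of which leaving out chromosome 5, centring the eigenvector, groups of at least 5 and leaving out chromosome 15 (except for the distance shares) were chosen after seeing the data. Without chromosome 15, the SW480 pool and not SNU-C1 had the larger count of stronger contacts (3169 against 1816), and no other direction reversed. With either replicate alone in place of the pool, SNU-C1 kept the larger count without chromosome 15. Leaving out 1 SW480 replicate gave 460 to 463 coverage blocks, 921 to 931 compartment blocks, 920 to 933 insulation bins, 83.5% to 83.8% shared boundaries, 1434 to 1546 contacts stronger in SW480, 3886 to 3918 stronger in SNU-C1, a ratio of 1.32 beyond 20 Mb and a compartment strength difference of -0.039 to -0.035. The count of coverage blocks was 208 of 1291 with 2-Mb blocks and 131 with bin factors, which are on another scale. Compartment blocks numbered 552 of 6406 at 400 kb. Between 67.02% (arms) and 93.7% (1 replicate left out) of the 931 blocks had the same call under the alternatives at 200 kb. Insulation bins numbered 407 with the same correction in both lines and 1274 with a 480-kb window. Shared boundaries were 84.1% with a coverage minimum of 0.5, 84.5% with the same correction, 84.6% with a 480-kb window, 84.3% at a strength of 0.3 and 75.6% within 40 kb. Contacts stronger in SW480 and in SNU-C1 numbered 316 and 1162 with 400-kb blocks, 11365 and 27473 without a minimum of read pairs, 186 and 1068 at an O/E of 8 and 8 times, and 337 and 1603 in groups of at least 5. The ratio beyond 20 Mb was 1.33 from corrected contact frequencies and 1.34 without chromosome 15. The strength difference was -0.071 with a coverage minimum of 0.5, -0.10 with the same correction, -0.023 with an expected value for each chromosome and -0.21 for 10% of blocks at either extreme. The causes were not tested. No paired analysis was possible because SNU-C1 has 1 map without a replicate number. With 1 SNU-C1 map, its own spread is unknown, and faint block pairs are limited by depth, since the median contact stronger in SW480 rested on 12 read pairs.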
